A study of Homo sapiens with 6 samples.

Results

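The 10 genes described here encode the AP-1 transcription factor subunits FOS, FOSB, FOSL1, FOSL2, JUN, JUNB and JUND, together with EGR1, IER3 and ATF3. They were taken by gene symbol from the authors' deposited comparison table, where all 10 were found among 27104 genes, and their expression was read from the deposited FPKM (fragment counts scaled by gene length and library size) by gene identifier. The cells were OVCAR3, an established line from human ovarian cancer, at passages 20 to 25, in medium with serum. Cells had been transfected with an empty vector (3 libraries, numbered 1 to 3 in the labels) or with a vector meant to overexpress DAB2IP (3 libraries with the label DAB2IP O/E, numbered 1 to 3). The promoter of the vectors and the time from transfection to harvest were not given in the sources used here, and beyond a mention of triplicates no label describes separate cultures, so each p-value reflects the spread between these libraries alone.

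Immediate early genes such as FOS and EGR1 are transcribed within minutes of a growth factor, serum or stress signal. They need no new protein synthesis for this, and their transcripts are short-lived. Not every member depends on stimulation to the same extent. In the textbook pathway, ERK and related kinases activate ELK factors and SRF at serum response elements of FOS and EGR1, and CREB at cyclic AMP response elements. FOS proteins pair with JUN proteins through leucine zippers to form AP-1, JUN proteins can also pair among themselves, and EGR1 is a zinc finger factor for GC-rich sites. DAB2IP encodes a Ras GTPase-activating scaffold protein, which lies upstream of ERK in this scheme.

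The vector labels were checked first. DAB2IP was at 7.49, 7.76 and 8.01 FPKM with empty vector and at 5.74, 5.02 and 5.73 FPKM in the DAB2IP O/E-labelled libraries, a log2 change of −0.43 (SE 0.06) with a limma FDR (the p-value after Benjamini-Hochberg adjustment over all genes tested) of 0.00548. The gene named on the vector was thus lower in the libraries labelled as overexpressing it, and each direction below holds for libraries with less measured DAB2IP. Whether the labels were exchanged, or reads from the vector's own DAB2IP sequence were not counted, was not tested, and "with empty vector" below means only that the library carries that label. All 8 markers of ovarian cancer epithelium averaged above 1 FPKM, with sums of 821 to 868 FPKM with empty vector and 1096 to 1153 FPKM in the other group. The labels' extraction text names adipocytes, but ADIPOQ, LEP, CIDEA and FABP4 had no entry in the tables, and the other 4 adipocyte markers summed to at most 0.644 FPKM in any library. Fibroblast, leukocyte and endothelial markers summed to at most 2.49, 2.09 and 0.886 FPKM. Whole reads recovered from the FPKM ran from 20445867 to 35434533 per library. In bulk RNA, fewer cells expressing a gene and less RNA per cell cannot be told apart.

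The 10 genes fell into a set that varied several-fold between libraries of the same group and a set that did not. FOS, FOSB and EGR1, and to a smaller extent JUN and JUNB, were lowest in the library numbered 1 of both groups. FOSL2 was steady within groups and was the only member that passed the test between the vectors, being lower in the DAB2IP O/E-labelled libraries. Of the 8 members tested, 0 rose, 1 fell and 7 did not pass at a limma FDR of 0.05 over 14761 genes. Across all genes tested 18.5% passed, 9.29% higher and 9.17% lower. Of these 8 members, 2 (FOSL2 and JUND) had an unadjusted p under 0.05, against 35.2% of all genes tested. FOSL2 was the only member called in the authors' deposited table, where 19.0% of the 20272 genes with an adjusted p were called. The median log2 change of the 8 members was 0.01, against −0.00 for all genes.

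**Figure D1:**
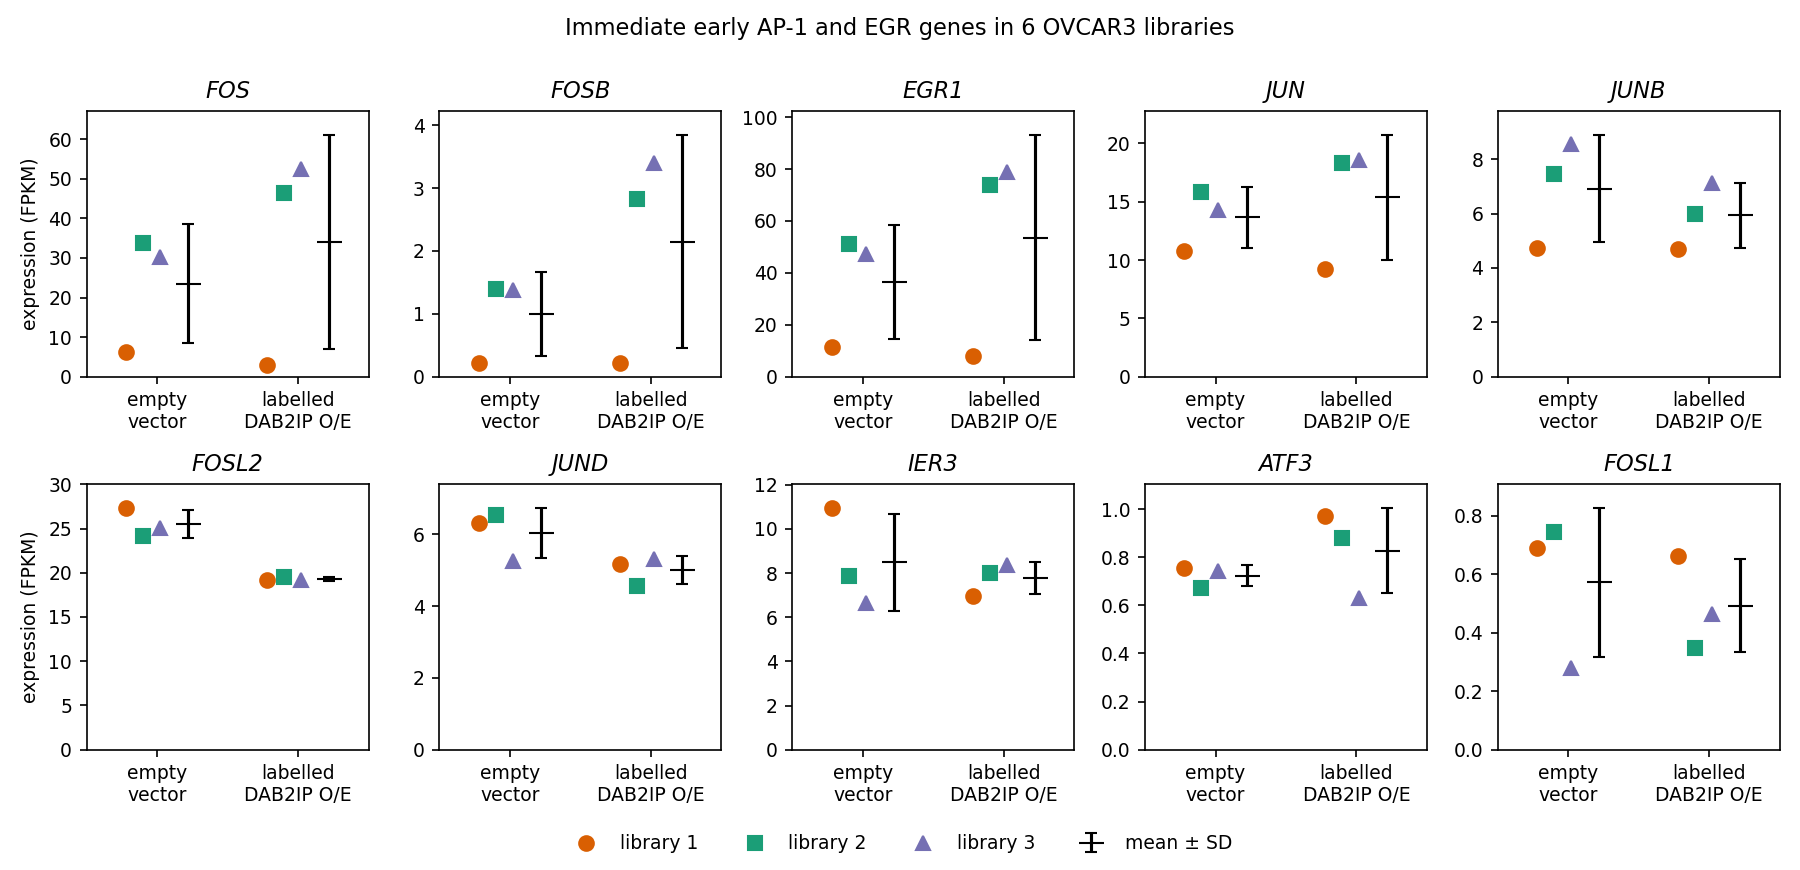
Expression in FPKM (y axis, from 0, with its own scale for each gene) of the 10 members in the 3 empty vector libraries and the 3 DAB2IP O/E-labelled libraries (x axis). Symbols are single libraries by their number, and the bar is the mean with its SD. In the FOS, FOSB, EGR1, JUN and JUNB panels the circle of library 1 lies below the other symbols in both groups, and in the FOSL2 panel the groups are separate.

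FOS, the founding member of the family and a partner of JUN in AP-1, was at 6.30, 33.9 and 30.3 FPKM in empty vector libraries 1, 2 and 3, and at 2.87, 46.5 and 52.6 FPKM in DAB2IP O/E-labelled libraries 1, 2 and 3. The gene (ENSG00000170345.9) spans chromosome 14, positions 75278774-75282230 (plus strand, GRCh38). Both libraries numbered 1 were far below the other 4, and the groups overlapped. The mean of libraries 2 and 3 was 5.09 times library 1 with empty vector and 17.3 times library 1 in the other group. These values rested on 334 to 4349 reads. Between the vectors the means were 23.5 ± 15 and 34 ± 27.1 FPKM (SD, n = 3 each), a log2 change of 0.10 with a 95% interval of −2.38 to 2.59 and a limma FDR of 0.957.

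EGR1, the zinc finger factor induced alongside FOS, behaved likewise. It was at 11.3, 51.1 and 47.4 FPKM in empty vector libraries 1, 2 and 3, and at 8.11, 73.9 and 78.8 FPKM in the DAB2IP O/E-labelled libraries. The gene (ENSG00000120738.7) spans chromosome 5, positions 138465490-138469315 (plus strand, GRCh38). Library 1 was again the lowest of its group on both sides, with the groups overlapping. Libraries 2 and 3 averaged 4.36 times library 1 with empty vector and 9.42 times library 1 in the other group. The log2 change between the vectors was 0.27 (95% interval −1.86 to 2.41, limma FDR = 0.858). Of the 10 members EGR1 had the highest mean level in both groups, at 36.6 ± 22.0 and 53.6 ± 39.5 FPKM (SD, n = 3 each), but its range overlapped that of the next gene in order in each.

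FOSB, a FOS paralogue, was much weaker, with 0.217, 1.39 and 1.37 FPKM in empty vector libraries 1, 2 and 3 and 0.220, 2.83 and 3.40 FPKM in the DAB2IP O/E-labelled libraries. It (ENSG00000125740.13) spans chromosome 19, positions 45467995-45475179 (plus strand, GRCh38). The libraries numbered 1 held 24 and 44 reads of it and the other 4 held 170 to 475. The log2 change between the vectors was 0.53 (95% interval −0.64 to 1.69, limma FDR = 0.490).

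Promoter windows from RefSeq (GRCh38.p14, 250 bases before to 50 after the annotated start) were found for 8 of the 10 members. Those of EGR1 (chr5:138465229-138465528, plus strand), FOS (chr14:75278578-75278877, plus strand), FOSB (chr19:45467746-45468045, plus strand) and JUN (chr1:58783998-58784297, minus strand) are shown because these genes were low together in the libraries numbered 1. That of FOSL2 (chr2:28392608-28392907, plus strand) is shown because FOSL2 did not follow them. JUNB was also lowest in the libraries numbered 1, but its window is not shown. Capitals mark every match to the motifs searched on both strands. These were the CArG box at the core of serum response elements, the cyclic AMP response element TGACGTCA and its TGACG part, the AP-1 site TGACTCA, its variant TGACATCA, the EGR site GCGNGGGCG, and TATAAA.
EGR1: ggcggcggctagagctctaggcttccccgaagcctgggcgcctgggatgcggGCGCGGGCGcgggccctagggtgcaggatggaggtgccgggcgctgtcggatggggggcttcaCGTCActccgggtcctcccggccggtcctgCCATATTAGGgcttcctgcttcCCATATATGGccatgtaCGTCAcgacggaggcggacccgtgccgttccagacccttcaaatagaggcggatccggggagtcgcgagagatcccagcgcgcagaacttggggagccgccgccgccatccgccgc
FOS: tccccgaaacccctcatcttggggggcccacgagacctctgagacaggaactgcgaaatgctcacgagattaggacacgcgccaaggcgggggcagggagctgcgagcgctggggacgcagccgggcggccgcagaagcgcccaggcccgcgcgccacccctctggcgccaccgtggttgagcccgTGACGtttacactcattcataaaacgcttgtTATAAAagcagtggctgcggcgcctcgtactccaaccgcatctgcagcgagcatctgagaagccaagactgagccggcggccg
FOSB: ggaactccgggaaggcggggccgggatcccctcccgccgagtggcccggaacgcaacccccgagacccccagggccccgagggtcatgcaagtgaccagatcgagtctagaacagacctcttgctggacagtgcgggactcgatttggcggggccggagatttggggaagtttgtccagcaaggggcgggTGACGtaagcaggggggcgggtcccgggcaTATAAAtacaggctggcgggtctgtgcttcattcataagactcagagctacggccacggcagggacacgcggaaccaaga
JUN: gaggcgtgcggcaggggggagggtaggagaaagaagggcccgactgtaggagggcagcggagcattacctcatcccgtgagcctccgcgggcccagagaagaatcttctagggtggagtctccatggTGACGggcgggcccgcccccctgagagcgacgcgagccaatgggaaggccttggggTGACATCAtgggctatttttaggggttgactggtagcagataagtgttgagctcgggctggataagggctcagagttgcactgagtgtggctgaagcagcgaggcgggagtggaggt
FOSL2: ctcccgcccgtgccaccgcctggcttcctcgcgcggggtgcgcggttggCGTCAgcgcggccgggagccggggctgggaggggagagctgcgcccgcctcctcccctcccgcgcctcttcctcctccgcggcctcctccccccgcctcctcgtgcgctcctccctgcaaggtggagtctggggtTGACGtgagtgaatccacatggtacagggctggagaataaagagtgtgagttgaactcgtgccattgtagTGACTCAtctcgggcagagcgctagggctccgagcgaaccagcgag

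EGR1 held 2 CArG boxes, which began 105 and 83 bases before the start. It was the only 1 of the 8 members matched with that motif in this window. Sequence further than 250 bases before the start was not searched, so a CArG box there, in FOS or another member, would be missed. A CArG box was present in 1.29% of the 35116 promoter windows in the table. TGACG, which also counts where it is part of TGACGTCA, was present in 7 of the 8 members matched (all but ATF3), against 24.6% of all windows. In FOS and FOSB it began 64 and 60 bases before the start, and TATAAA began 33 and 30 bases before it. TATAAA was also found in JUNB and in the second ATF3 window, and in 11.5% of all windows. The variant TGACATCA began 67 bases before the start in JUN, was also present in ATF3, and occurred in 2.61% of all windows. FOSL2 held TGACTCA just downstream of the start (4.95% of all windows), JUND held the full TGACGTCA (1.85%), and EGR1 held a GCGNGGGCG match (9.43%). These matches describe letters in a window and not binding.

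JUN, the AP-1 subunit that pairs with every FOS protein, was at 10.7, 15.9 and 14.3 FPKM in empty vector libraries 1, 2 and 3 and at 9.21, 18.3 and 18.6 FPKM in the DAB2IP O/E-labelled libraries. The gene (ENSG00000177606.6) spans chromosome 1, positions 58780788-58784327 (minus strand, GRCh38). Both libraries numbered 1 lay below the other 4, by a smaller factor than for FOS. The mean of libraries 2 and 3 was 1.41 and 2.00 times library 1 in the respective groups. Between the vectors the log2 change was 0.12 (95% interval −0.49 to 0.73, limma FDR = 0.783).

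JUNB, a JUN paralogue, was at 4.74, 7.45 and 8.57 FPKM with empty vector and at 4.71, 5.97 and 7.11 FPKM in the other group, in the order of the library numbers. It too was lowest in the libraries numbered 1, with overlapping groups and a log2 change of −0.17 (95% interval −0.65 to 0.30, limma FDR = 0.574). HOOK2, on the opposite strand, shares 14.2% of the exon bases of JUNB, and whether counting used the strand is not given in the sources used here.

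The spread of FOS within groups was the largest of all 14761 genes tested, and that of EGR1 was next. On the log2(FPKM + 1) scale the within-group SD was 1.76 for FOS and 1.51 for EGR1, against a median of 0.08 over all genes and a largest value of 1.27 outside the members. Among the 11291 protein-coding genes tested, FOS ranked 1, EGR1 2, FOSB 4 with an SD of 0.82, JUN 12 with 0.43, JUNB 33 with 0.33 and IER3 79 with 0.25. JUND ranked 1543 with an SD of 0.12 and FOSL2 ranked 7039 with 0.06. Among the 2913 genes within 2-fold of its mean level, FOS again had the largest spread.

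**Figure D2:**
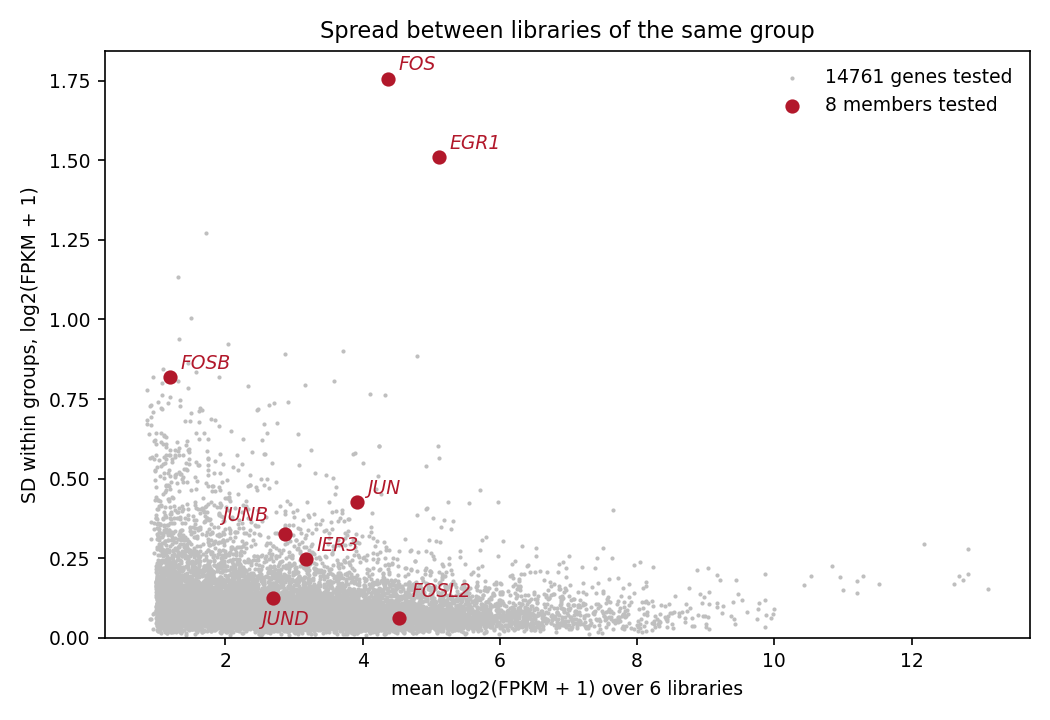
Within-group SD of log2(FPKM + 1) (y axis, from 0) against the mean of log2(FPKM + 1) over the 6 libraries (x axis) for the 14761 genes tested, in grey, with the 8 members tested in red. FOS and EGR1 lie above every other gene, at 1.76 and 1.51, and FOSL2 lies in the dense band at 0.06.

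The pattern by library number was seen in the values and then counted, so its counts are a description with no test. Both libraries numbered 1 lay below the other 4 in 5 of the 8 members tested, against 6.66% of all genes tested. In the same 5 of 8, library 1 was the lowest of the 3 in each group, against 16.6% of all genes. On the log2(FPKM + 1) scale, libraries 2 and 3 exceeded library 1 more for FOS than for any other gene tested, in each group. EGR1 came 3 in that order with empty vector and 2 in the other group, and FOSB came 38 and 4. As a plain ratio of FPKM, libraries 2 and 3 of FOSB averaged 6.37 and 14.1 times library 1 in the respective groups. With empty vector that ratio was above the 5.09 of FOS. IER3 did not follow, being highest in library 1 with empty vector and lowest in library 1 of the other group.

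Among 31 other immediate early genes tested, 10 had both libraries numbered 1 below the other 4. They were IER2, DUSP1, ZFP36, ZFP36L2, BTG1, NR4A1, CYR61, CTGF, MCL1 and RHOB, named because they meet that count. In some the factor was small. Libraries 2 and 3 averaged 1.08 times library 1 in each group for BTG1, and 1.04 and 1.23 times for MCL1. Other genes of the 31 went the other way, and their number was not counted. AREG was highest in library 1 of both groups, at 3.62, 2.04 and 1.43 FPKM and at 3.27, 2.29 and 2.22 FPKM. CTGF, a secreted matricellular protein also called CCN2, was at 23, 37.8 and 33.9 FPKM in empty vector libraries 1, 2 and 3 and at 18.7, 46.7 and 50.7 FPKM in the other group. IER2, a nuclear immediate early protein, was at 7.36, 12.2 and 12.6 FPKM and at 7.80, 12.8 and 13.6 FPKM in the respective groups. DUSP1, a phosphatase that inactivates MAP kinases, was at 2.83, 3.97 and 3.41 FPKM and at 2.29, 5.07 and 4.70 FPKM. The EGR paralogues EGR2 and EGR3 were below the filter of 1 FPKM. EGR2 was at 0.0679, 0.233 and 0.124 FPKM with empty vector and at 0.0528, 0.272 and 0.280 FPKM in the other group, again lowest in the libraries numbered 1. EGR3 was at 0.0723, 0.0747 and 0.0218 FPKM and at 0.258, 0.292 and 0.254 FPKM, on 3 to 45 reads per library. Its groups did not overlap, as for 40.4% of the genes above the filter, and the 2-sided exact permutation p was 0.1. With no filter on level EGR3 was called higher in the DAB2IP O/E-labelled libraries, by 0.26 on the log2(FPKM + 1) scale at a limma FDR of 0.0108, where 8.71% of 27104 genes were called. The authors' deposited table gives it a log2 change of 2.31 (SE 0.50) and an adjusted p of 7.4e-05.

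**Figure D3:**
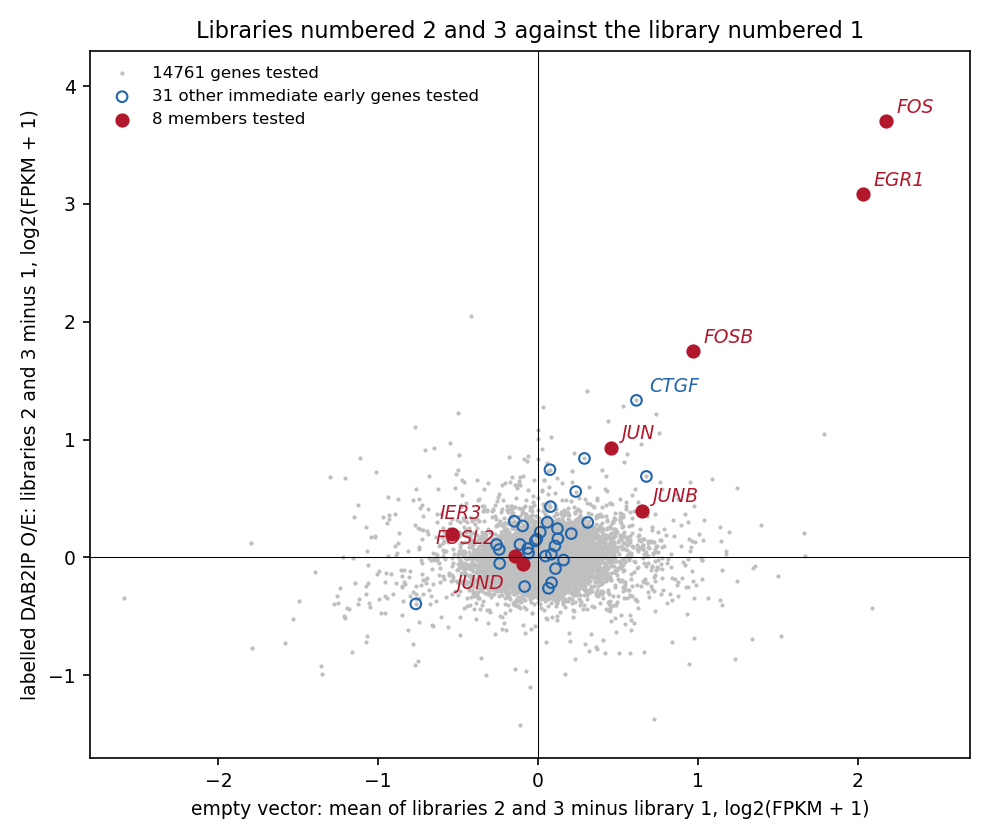
For each gene tested, the mean of libraries 2 and 3 minus library 1 on the log2(FPKM + 1) scale, with empty vector (x axis) and in the DAB2IP O/E-labelled libraries (y axis). Grey points are all 14761 genes, blue circles 31 other immediate early genes and red points the 8 members. FOS, at 2.18 and 3.70, and EGR1, at 2.03 and 3.09, lie apart at the upper right.

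Other measures were compared by library number. Depth did not follow it in the same way in the groups, since library 1 was the shallowest with empty vector (20445867 reads) and the deepest in the other group (35434533 reads). The mitochondrial share of reads was 6.39%, 5.17% and 4.72% in empty vector libraries 1, 2 and 3 and 5.54%, 4.96% and 5.57% in the other group, so library 1 was the highest in the empty vector group alone. The summed level of 10 heat shock genes was highest in library 1 of both groups, at 1695, 1368 and 1369 FPKM and at 1465, 1309 and 1273 FPKM in the order of the numbers. Among all single genes tested, 15.9% were highest in library 1 of both groups. The part of depth, mitochondrial share or heat shock level in the pattern of FOS, FOSB and EGR1 was not tested.

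Patterns most like those of the members were sought as the smallest root mean square difference in centred log2(FPKM + 1) over the 6 libraries, outside the member list. For FOSB these were CTGF, with a difference of 0.25, HES1, a NOTCH-responsive repressor, with 0.32, and MIR4647 with 0.37. JUN was nearest to DUSP1 at 0.07, IER2 at 0.12 and the small nucleolar RNA gene SNORD28 at 0.13. For FOS the nearest were MIR4647 at 0.93, CTGF at 0.95 and MIR616 at 1.01. The same genes came in that order for EGR1 at 0.71, 0.75 and 0.82. This measure depends on the size of the changes as well as on their shape. The range over the 6 libraries was 3.79 for FOS and 3.13 for EGR1, against 1.85 for FOSB and 0.94 for JUN. The larger differences of FOS and EGR1 therefore do not show that no gene shared their shape. The microRNA gene MIR4647 held at most 8 reads per library and MIR616 at most 20. Between members, FOS and EGR1 differed by 0.23.

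The composition of the FOS family differed by library. FOSL2 made up 79.1% and 83.6% of the summed FPKM of FOS, FOSB, FOSL1 and FOSL2 in the libraries numbered 1, with empty vector and in the other group. In libraries 2 and 3 FOS was the largest part, with 56.3% and 53.2% with empty vector and 67.2% and 69.6% in the DAB2IP O/E-labelled libraries. JUN was the largest part of the JUN family in all 6 libraries, with 48.3% to 63.5% of the summed FPKM of JUN, JUNB and JUND. JUND held 29% and 27.1% in the libraries numbered 1 and 15.8% to 21.9% in the other 4.

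**Figure D4:**
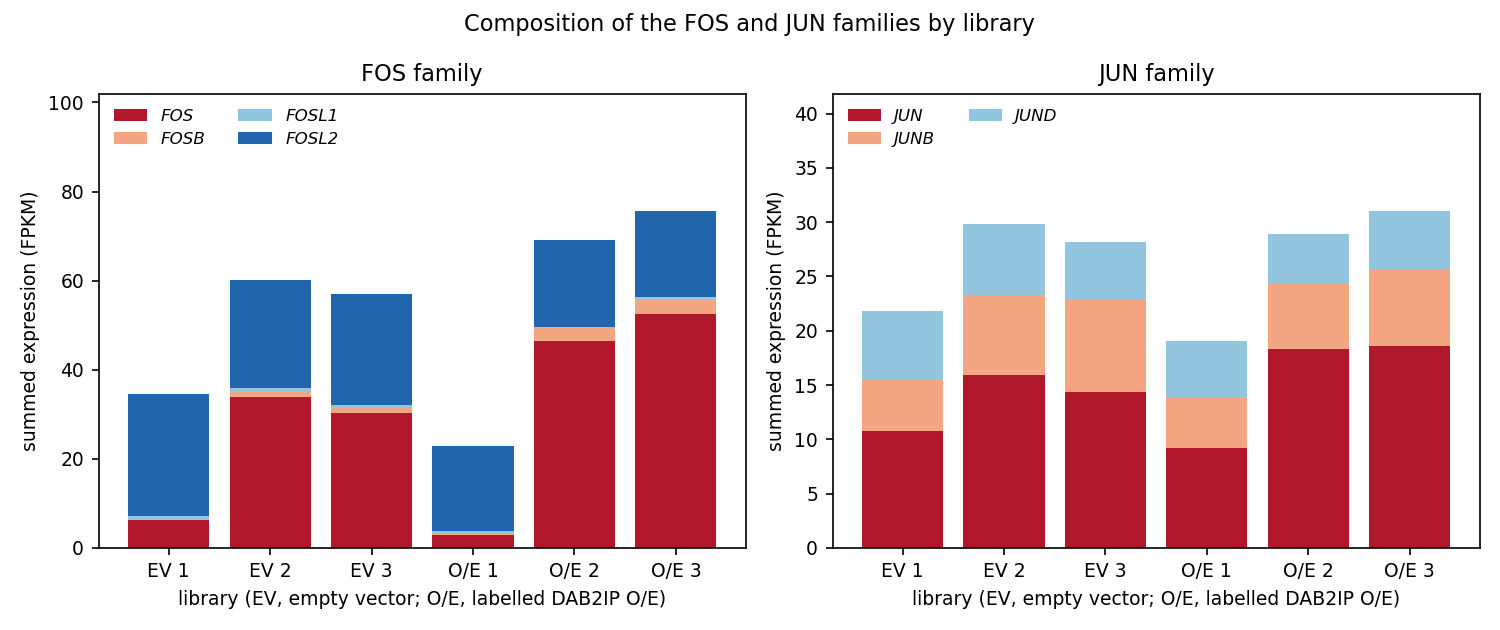
Summed FPKM (y axis, from 0) of the FOS family (left) and the JUN family (right) in each library (x axis), divided by gene. Most of each FOS family bar is FOSL2 in the libraries numbered 1, at 79.1% and 83.6%, and FOS in the other 4.

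FOSL2, also called FRA2 and a FOS paralogue that lacks the strong activation domain of FOS, fell in the DAB2IP O/E-labelled libraries. It was at 27.3, 24.1 and 25.1 FPKM with empty vector and at 19.2, 19.6 and 19.1 FPKM in the other group. The groups did not overlap, as for 40.4% of all genes tested (20.9% in this direction), and the library numbers did not order the values. The means were 25.5 ± 1.6 and 19.3 ± 0.22 FPKM (SD, n = 3 each), 1.32 times higher with empty vector. The log2 change was −0.38 (SE 0.05) at a limma FDR of 0.00520. By exact permutation, 2-sided, p was 0.1, which is as low as 3 against 3 libraries can reach. The gene (ENSG00000075426.11) spans chromosome 2, positions 28392448-28417312 (plus strand, GRCh38), and the median log2 change of the 68 other genes tested between 20 and 30 Mb was 0.05. Each value rested on 3450 to 5084 reads.

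In the authors' deposited table FOSL2 changed by −0.40 (SE 0.06) on the log2 scale, once turned to the same direction, with their adjusted p at 1.3e-08. The genes nearest to FOSL2 in pattern were KNSTRN, a kinetochore protein, at a root mean square difference of 0.016, PLK4, the kinase of centriole duplication, at 0.016, and ZNF689, a zinc finger protein, at 0.023. They were picked for that likeness, so their being lower in the DAB2IP O/E-labelled libraries is no separate result. Their limma FDR values were 0.00476, 0.00761 and 0.00805.

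JUND, the JUN paralogue that is least dependent on stimulation, was at 6.32, 6.54 and 5.25 FPKM with empty vector and at 5.17, 4.55 and 5.31 FPKM in the other group. The groups overlapped by the third library of each. Its log2 change of −0.23 (95% interval −0.43 to −0.02) had a limma FDR of 0.115, which was 0.0362 without the third empty vector library. IER3, a regulator of cell survival that ERK phosphorylates, was at 10.9, 7.86 and 6.63 FPKM and at 6.97, 8.01 and 8.35 FPKM, with overlapping groups. Its log2 change was −0.09 (95% interval −0.45 to 0.28, limma FDR = 0.720). Without empty vector library 1 it was 0.09, with no call. IER3-AS1, on the opposite strand, shares 26.5% of the exon bases of IER3.

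ATF3, a stress-induced bZIP factor, and FOSL1, also called FRA1, lay below the filter of a mean of 1 FPKM and were not tested. ATF3 was at 0.757, 0.673 and 0.742 FPKM with empty vector and at 0.971, 0.882 and 0.629 FPKM in the other group. FOSL1 was at 0.690, 0.745 and 0.280 FPKM and at 0.663, 0.348 and 0.463 FPKM, on 15 to 45 reads per library. The groups overlapped for both genes, with a 2-sided exact permutation p of 0.4 for ATF3 and 0.7 for FOSL1. Neither was lowest in the libraries numbered 1.

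In order of mean level with empty vector the members were EGR1, FOSL2, FOS, JUN, IER3, JUNB, JUND, FOSB, ATF3 and FOSL1. The ranges of neighbours in that order overlapped except between JUND and FOSB. In the DAB2IP O/E-labelled libraries, FOS stood above FOSL2 and the order was otherwise the same. There FOSL2 and JUN, JUN and IER3, and JUND and FOSB had separate ranges.

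Since the libraries numbered 1 stood apart for these genes, the comparison was repeated without both of them, after their values had been seen. With the remaining 4 libraries, FOS averaged 32.1 FPKM with empty vector and 49.5 FPKM in the DAB2IP O/E-labelled libraries, EGR1 averaged 49.3 and 76.4 FPKM, and FOSB 1.38 and 3.11 FPKM. Both values of the second group lay above both of the first for each of the 3 genes. The share of all genes tested that separate in this way was not counted. The log2 changes were 0.61 (SE 0.08) for FOS, 0.62 (SE 0.06) for EGR1 and 0.79 (SE 0.09) for FOSB. Their limma FDR values were 0.0211, 0.0108 and 0.0167. JUN changed by 0.27 at a limma FDR of 0.0603, and FOSL2 still fell, by 0.33 on the log2 scale at a limma FDR of 0.0236. Among these 4 libraries 8.43% of all genes passed. The libraries were left out because of their levels of the same genes, so these p-values describe the remaining libraries and do not replace the comparison of all 6.

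Leaving out single libraries turned the direction of FOS, EGR1 and JUN, and of IER3 as given above. For FOS the log2 change was −0.62 without empty vector library 1, and it was 1.34, −0.47 and −0.56 without DAB2IP O/E-labelled libraries 1, 2 and 3. For EGR1 the same settings gave −0.41, 1.30, −0.22 and −0.27. JUN changed by −0.04, 0.43, −0.03 and −0.04 there. None of the limma FDR values of these 3 genes passed when a single library was left out, while FOSL2 passed in each such fit.

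**Figure D5:**
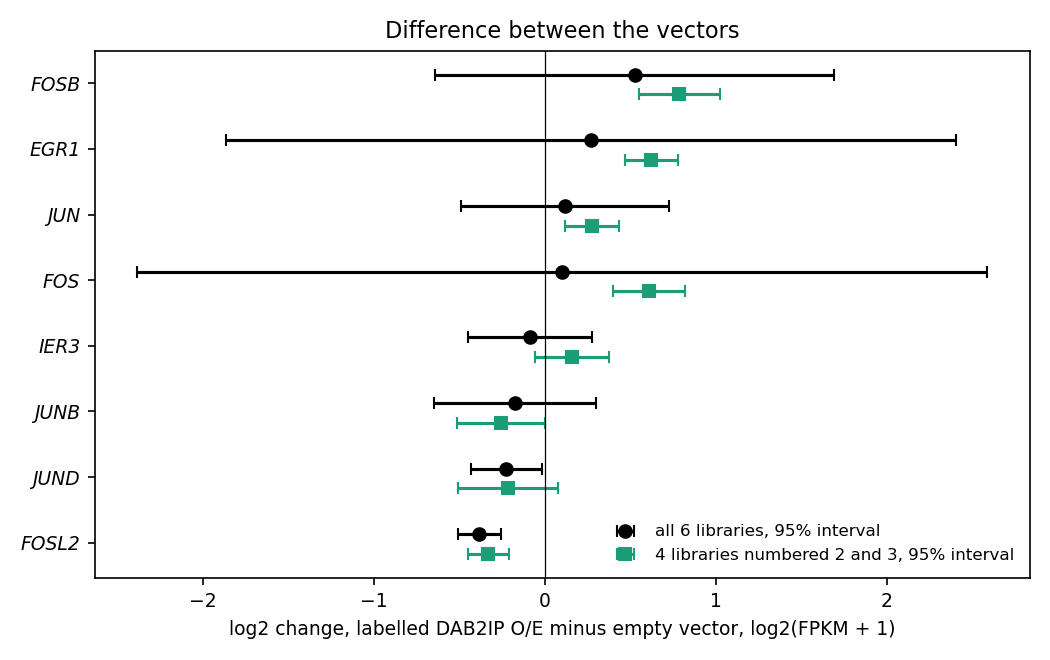
Log2 change of FPKM + 1, DAB2IP O/E-labelled libraries minus empty vector (x axis), for the 8 members tested (y axis), with 95% intervals from limma. Black points use all 6 libraries and green squares the 4 libraries numbered 2 and 3. The black intervals of FOS and EGR1 run from −2.38 to 2.59 and from −1.86 to 2.41, and those of FOSL2 lie below 0 in both settings.

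Of 117 other genes of the pathway tested, 10 rose and 12 fell in the DAB2IP O/E-labelled libraries, a share of 18.8% against 18.5% of all genes tested. Their median log2 change was 0.01. The total was 12 without the second empty vector library and 10 without DAB2IP O/E-labelled library 3, while the count over all genes fell from 2725 to 1210 and 956 there and 1289 when DAB2IP O/E-labelled library 1 was dropped.

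Upstream, 0 of 25 kinases and factors rose, 1 fell and 24 did not pass, with a median log2 change of 0.00. The gene that fell was RPS6KA3, the ERK-activated kinase RSK2, from 11.4 ± 0.75 to 9.18 ± 0.35 FPKM (SD, n = 3 each). Its limma FDR of 0.0206 became 0.0732, 0.0696 and 0.0831 without empty vector library 2 and without DAB2IP O/E-labelled libraries 1 and 3, respectively. Of 15 other bZIP partners, 3 rose and 2 fell. NFE2L1, a stress-responsive bZIP factor, rose from 40.7 ± 0.23 to 50.8 ± 1.8 FPKM, and CEBPB, a C/EBP family factor, fell from 22.0 ± 1.5 to 16.3 ± 0.47 FPKM. MAFG, a small MAF protein, changed by 0.22, a call lost without library 1 or 2 of either group or DAB2IP O/E-labelled library 3, at limma FDR values up to 0.123. JDP2, a JUN-dimerising repressor named after its value was seen, changed by −0.46. Its limma FDR of 0.0400 rose above the threshold, up to 0.128, without library 1 or 2 of either group or DAB2IP O/E-labelled library 3, and was 0.0792 with no filter. Neither NAB1 nor NAB2, corepressors of EGR1, passed, and 0 of 8 genes of AP-1 turnover and repression did in limma. At an unadjusted p under 0.05 the counts were 0 of 2 and 1 of 8, against 35.2% of all genes tested.

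Of the 31 other immediate early genes, 1 rose and 4 fell. KLF10, a Krüppel-like repressor, fell from 13 ± 0.66 to 9.75 ± 0.47 FPKM (SD, n = 3 each), and ID1, an inhibitor of basic helix-loop-helix factors, fell by 0.83 on the log2 scale. SERTAD1, a transcriptional coregulator named after its value was seen, rose by 0.34 at a limma FDR of 0.0456. That call was lost in every fit that left out 1 library except empty vector library 3, at a limma FDR of up to 0.145, and was also lost with no filter (0.0881) and with equal library medians (0.0519). The kinase SIK1 and the nuclear protein gene IER5L changed by −0.25 and −0.44, but both calls were lost without empty vector library 2 or DAB2IP O/E-labelled library 3. SIK1 was also lost without DAB2IP O/E-labelled library 1, and IER5L without empty vector library 1 or DAB2IP O/E-labelled library 2. Their limma FDR values rose to 0.0778 and 0.0926. The 10 genes that were low in both libraries numbered 1 did not include any of these 5.

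Genes known as AP-1 targets moved in both directions, with 5 of 18 higher, 4 lower and 9 not passing. A further 13 of the 31 listed were below the filter or had no entry, and were not tested. Among these, VIM, named after its value was seen, averaged 0.457 FPKM with empty vector and 1.38 FPKM in the other group. The authors' deposited table gives it an adjusted p of 4.0e-15. How many of the others differed was not counted. Across all genes tested 9.29% were higher and 9.17% lower. The lists were chosen with earlier results of these data known, and no list was tested as a set. GJA1, the gap junction protein connexin 43, changed by 1.96. EMP1, an epithelial membrane protein, changed by −0.47 and TGFB1, the TGF-beta ligand, by −0.44. The limma FDR values of these 3 genes lay between 0.000131 and 0.00489. Others, named after their values were seen, were MMP10, ITGA2 and ODC1, which rose by 1.56, 0.27 and 0.23, and PLAUR and VEGFA, which changed by −0.35 and −0.33. MMP10 was called in each fit that left out 1 library and ITGA2 in none, at a limma FDR of up to 0.127. ODC1 was lost without library 2 of either group or DAB2IP O/E-labelled library 1 or 3, PLAUR without DAB2IP O/E-labelled library 1 or 3, and VEGFA without empty vector library 2 or DAB2IP O/E-labelled library 3. Their limma FDR values reached 0.0826, 0.0772 and 0.0704. Of 8 genes regulated by EGR1, 1 fell and 7 did not pass. It was PDGFA, a growth factor chain, which was at 4.64 ± 0.34 and 3.25 ± 0.10 FPKM (SD, n = 3 each). Of 10 heat shock genes, 1 passed: HSPB1, a small heat shock protein, changed by 0.41, a call lost without library 1 of either group, empty vector library 2 or DAB2IP O/E-labelled library 3, with limma FDR values up to 0.120.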

How the data were processed

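Poly-A RNA libraries were made with a stranded kit, per the labels' protocols. The authors deposited FPKM per gene and library, and a comparison table with, per the file headers, a mean normalised count (signal), log2 fold changes, their standard errors, a score from the test and p-values. Per the submitters' processing notes, which give no roles, the builds were GRCh38.p5 and hg19 and the tools were R 3.3.1, DESeq2 1.12.4, TopHat2 2.1.1, TopHat, Bowtie and Trimmomatic 0.32. For the annotation, counter and strand setting, no statement is given in the sources used here. Of the gene identifiers, 25344 had the same version in GENCODE 29, all with the same GRCh38 coordinates. Whole reads were recovered from FPKM and the authors' deposited mean normalised count (100% of values within 0.001 of a whole number in each library); intervals cover the spread between libraries. The authors' fold change was turned to DAB2IP O/E over empty vector, the direction that matched the FPKM within 0.0113 for 8277 genes.

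Group differences in log2(FPKM + 1) were tested 2-sided with limma 3.58.1 (eBayes, trend; R 4.3.3). The 14761 genes averaging 1 FPKM or more entered. P-values were adjusted by Benjamini-Hochberg with a threshold of 0.05 (FDR in the text), and the procedure was tested on simulated data. Log2 changes on this scale understate those of weak genes. The members and gene lists were chosen with earlier results of these data known. Named genes were the members, DAB2IP, up to 4 called genes per list with the lowest adjusted p, and the 3 nearest in pattern for the members described in most depth. Some genes that this rule names are not reported here. No libraries were duplicates. Alternatives were other pseudocounts, filters, scalings, variance models, a block, recovered reads, the authors' table and left-out libraries.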

Additional observations from a re-analysis of the deposited data

How the results depend on the processing

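FOSL2 alone was called in each alternative that is not named next. The number of members called was 4 with the libraries numbered 2 and 3 only and 3 with a replicate block on recovered reads, both chosen after seeing the data, and 1 to 2 with single libraries left out (2 without empty vector library 3, with JUND). The count over all genes was 1244 and 4426 in those added settings and 956 to 2731 with single libraries left out. For the other pathway genes it was 47 with the block on recovered reads, 14 with a filter of 5 FPKM, and 10 to 27 with single libraries left out. With limma-voom on the recovered reads 3703 genes were called, and with library medians set equal 1165 genes were higher and 1686 lower.

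Leaving out single libraries gave log2 changes of −0.62 to 1.34 for FOS, −0.41 to 1.30 for EGR1, −0.044 to 0.43 for JUN and −0.23 to 0.091 for IER3. FOS changed by −0.081 with limma-voom on the recovered reads, and IER3 by 0.16 with the libraries numbered 2 and 3 only. The cause was not tested. Over members and alternatives, 133 values kept direction and side of the threshold, 6 newly passed and 12 reversed.

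Library numbers are shared by the groups, but the deviations of same-numbered libraries correlated at 0.12, 0.10 and 0.06 across genes, so the numbers were not taken as pairs, although every library correlated best with its own number. With a replicate block 2393 genes were called, 1 of them a member and 25 other pathway genes. With the block on recovered reads FOSB, EGR1 and FOSL2 were called.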
